A study of Mus musculus with 12 samples.

Results

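The comparison set 4 arrays of thymocytes cultured with a high dose of an agonist peptide against 4 arrays with a low dose. All 8 came from HY-TCR reaggregate thymic organ cultures (RTOC) at day 6. The peptide was Smcy, given at 1e-05 M in the group called HY_high and at 1e-07 M in the group called HY_low, so the doses differ while receptor, culture and day were labelled alike. The members were taken by their labels, 8 of the 12 arrays in the series. The other 4, OT1-TCR thymocytes of the same day with no peptide named, are given for their level and entered the estimate of the spread. No strain, sex or age of the animals is given, and it is not stated whether cells were sorted before RNA was taken. The array titles carry the letters aa at the high dose and ab at the low dose, with no explanation, so dose and whatever these letters mark cannot be told apart. Arrays carry the numbers 1 to 4 in each group, and same-numbered arrays of both doses were compared with each other. The labels do not say that the numbers were separate cultures, so the p-values measure the spread between these arrays, which may be technical.

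In RTOC, thymocytes are mixed with thymic stromal cells and develop in a small aggregate, and peptide added to the medium is presented to them by the stroma. The HY receptor recognises a class I peptide made from the Y-linked gene Smcy, now named Kdm5d. Weak recognition in the thymus lets a thymocyte mature as a conventional CD8 T cell, which carries the CD8 alpha and beta chains. Strong recognition is known to delete thymocytes or to divert them to agonist-selected lineages, among them intraepithelial lymphocytes that carry CD8 alpha without beta and often carry receptors better known from natural killer (NK) cells.

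Expression was read as the deposited intensity of each probe set, a linear brightness whose lowest value is 1. On the HY arrays 66.3% of the values lay below 8, and array medians were 3.35 to 3.97 at the low dose and 3.52 to 3.96 at the high dose. The share of values at exactly 1 ran from 5.17% to 22.4% at the low dose and from 3.003% to 22.5% at the high dose. It was lowest on array 2 of each dose. The log2 ratio of 3' to 5' Gapdh controls averaged 4.80 ± 1.12 (SD, n = 4) at the low dose and 4.55 ± 1.08 at the high dose. Arrays numbered 1 stood apart in several bright genes. B2m, the light chain of class I MHC, read 142 and 192 there against at least 1164 on the other HY arrays. Differences below are log2 values, high dose minus low dose, and near the bottom of the scale a small step in brightness is a large log2 step. Where raising intensities under 8 to 8 ("with the floor") shrinks a difference by over 1.5 times, that value is given too, and a probe set at or below 8 on all 12 arrays has none. The number of arrays limits the precision.

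No probe set passed an adjusted p of 0.05 when all 12422 were tested with limma, which is 0% called. The smallest adjusted p was 0.0564, shared by Cd8b1, Fcer1g and a dim probe set with no gene. Before adjustment 1112 probe sets had p under 0.05 (8.95%), 613 higher at the high dose (4.93%) and 499 lower (4.02%). With a filter that left out the dimmest 30% of probe sets, 30 of 8695 passed (0.345%), 20 higher (0.23%) and 10 lower (0.115%). With the floor and no filter, 6 of 6224 passed (0.0964%), 5 higher (0.0803%) and 1 lower (0.0161%), and all 6 were among the 30. Of the 30, Klrb1a, Fcer1g and Casp1 lay below the filter's level of 1.76 at the low dose and in OT1 and were kept through their level at the high dose. Their pass with the filter is therefore not used, and they are given with the fit on all probe sets, which none of them passed. Without the filter the adjusted p of the 30 ran from 0.0564 to 0.326. The 30 hold 26 probe sets with 1 gene, 2 with several and 2 with none. They were picked out after their values were seen, and "rose" and "fell" below mean a pass with the filter by the other 27. The sign was the same within 4 of 4 numbers for 30 of 30, and the groups did not overlap for 19. Klrb1a, Fcer1g and Casp1 are in both counts. The 30 were chosen by this same difference, paired by number. Both counts therefore follow in part from that choice and only describe the 30. Over all probe sets 879 were higher in 4 of 4 numbers (7.08%) and 1016 lower (8.18%), and 206 had groups that did not overlap (1.66%). With each gene read by its brightest probe set, 699 of 8251 genes were higher in 4 of 4 numbers (8.47%) and 708 lower (8.58%). These shares stand beside every such count of a gene list below. Errors of these differences are standard errors (SE) of the fit with the filter unless said otherwise.

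**Figure D1:**
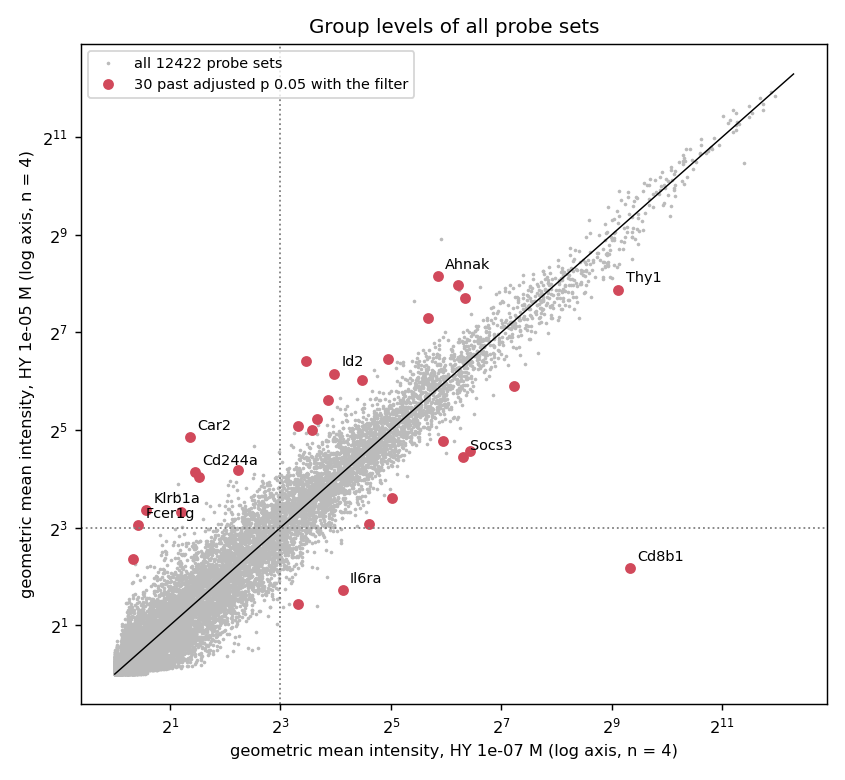
Geometric mean intensity of each probe set over the 4 HY 1e-07 M arrays (horizontal, log axis) and the 4 HY 1e-05 M arrays (vertical, log axis), with the line of equal levels and dotted lines at 8. The 30 probe sets that passed with the filter are red, and Cd8b1 lies farthest below the line, at 644 against 4.52.

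The gene with the largest difference was Cd8b1, the beta chain of the CD8 heterodimer. Its intensity at the low dose was 172, 698, 1042 and 1374 on arrays 1 to 4 (probe set 162410_s_at). At the high dose it was 8.18, 1, 6.18 and 8.26, so every low-dose array was bright and every high-dose array lay at the bottom of the scale. The 4 OT1 arrays read 219, 835, 1032 and 1219.5, within the range of the low dose. Cd8b1 fell by 7.15 ± 0.54 on the log2 scale (SE, n = 4 per group, limma adjusted p = 2.09e-06 with the filter). Since the high-dose arrays are at the bottom of the scale, the size is a bound only: with the floor the difference was -6.31 (adjusted p = 0.00154), or at least 79.4-fold lower. In bulk RNA of this kind, fewer cells with a transcript and less transcript per cell cannot be told apart.

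Cd8a, the alpha chain of the same coreceptor, read 109, 1084, 391 and 286 at the low dose and 85.4, 194, 169 and 216 at the high dose. Both groups were bright and they overlapped. Its difference of -1.11 ± 0.31 did not pass (adjusted p = 0.162 with the filter), although it was lower in 4 of 4 numbers. Within numbers 1 to 4 the log2 change of Cd8b1 minus that of Cd8a was -4.05, -3.97, -5.82 and -6.97 with the floor, a mean of -5.2 ± 1.46 (SD, n = 4), and -6.04 ± 1.38 without it. Cd4, the coreceptor of the helper lineage, was dim throughout, at 2.16 to 9.19 at the low dose and 3.88 to 6.94 at the high dose. An exact permutation test over arrays, two-sided and unpaired, gave p = 0.0286 for Cd8b1, 0.2 for Cd8a and 0.971 for Cd4, where 0.0286 is the smallest that 4 against 4 allows. Paired by number the same genes gave 0.125, 0.125 and 1, where 0.125 is the smallest.

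**Figure D2:**
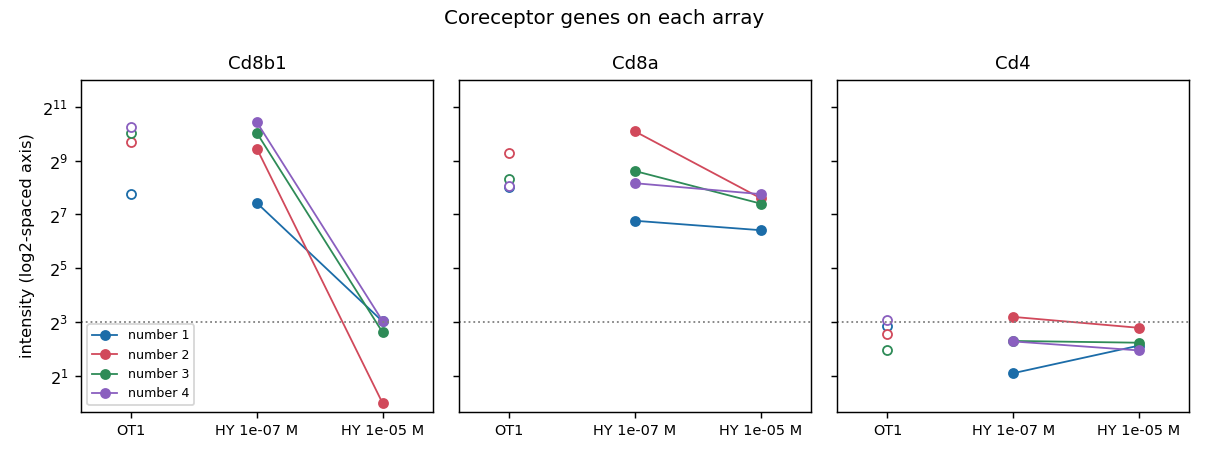
Intensity of Cd8b1, Cd8a and Cd4 on each array (vertical, log2-spaced axis), with lines joining HY arrays of the same number, open circles for OT1 and a dotted line at 8. Cd8b1 drops from 172 to 1374 at the low dose to 1 to 8.26 at the high dose, Cd8a spans 85.4 to 1084 over both doses and Cd4 lies between 2.16 and 9.19.

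Several receptors and adaptors of NK cells were higher at the high dose. Klrb1a, an activating lectin-like receptor of the NKR-P1 family, read 2.05, 1.73, 1 and 1.38 at the low dose and 12.7, 7, 7.31 and 17.1 at the high dose. The groups did not overlap, and the OT1 arrays, at a geometric mean of 1.22, were as dim as the low dose. The difference of 2.79 ± 0.32 did not pass with all probe sets tested (adjusted p = 0.0694), 2 of the 4 high-dose arrays stayed below 8 and with the floor 0.44 was left. A second probe set, listed for both Klrb1b and Klrb1c, read 2.08, 1.74, 2.76 and 2.77 at the low dose and 12.8, 7.13, 9.72 and 10.9 at the high dose. It rose by 2.11 ± 0.41 (adjusted p = 0.0301 with the filter), or 0.35 with the floor, where it did not pass (adjusted p = 0.302). These genes are close relatives, and whether both probe sets bind the same transcripts was not tested.

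Klrd1 (CD94) is the partner chain of NKG2 receptors. Its arrays read 66.3, 8.75, 51.3 and 114 at the low dose and 91.5, 221, 239.8 and 317 at the high dose. Only array 2 of the low dose was near the floor, and the groups overlapped. The difference of 2.21 ± 0.53 had the same sign in 4 of 4 numbers and did not pass (adjusted p = 0.0958 with the filter). Klrk1 (NKG2D), another activating lectin, had 1.53 at intensities below 8 on every HY array. Of 24 lectin receptors listed, 11 were measured by a probe set of their own. Higher in 4 of 4 numbers were 4 of them and lower none, beside 8.47% and 8.58% of 8251 genes, and 8 of the 11 never exceeded 8 on any of the 12 arrays. The median difference was 0.39, against 0.01 over all genes. Markers of NK cells with a probe set of their own were at the bottom of the scale. Of 8 listed 4 were measured in this way, none exceeded 8 on any HY array, and their summed intensity was 6.72 to 12.4 at the low dose and 7.18 to 11.2 at the high dose. Ncr1, the defining NK receptor, was at most 1.47 on the HY arrays. Klrb1c, also listed, shares its probe set with Klrb1b and is not in this sum. That shared probe set read 1.74 to 2.77 at the low dose and 7.13 to 12.8 at the high dose.

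Cd244a (2B4), a receptor of the SLAM family that binds CD48, read 6.88, 1.98, 2.41 and 1.75 at the low dose. At the high dose it read 15.9, 22.6, 14.2 and 18.9, above 8 on every array, while every low-dose array was below 8. It rose by 2.68 ± 0.45 (adjusted p = 0.0126 with the filter) and passed with the floor as well (1.14, adjusted p = 0.0194). No other member of this family passed. Its ligand Cd48 was bright at both doses, with geometric means of 231 and 322 (difference 0.48, adjusted p = 0.37). Crtam, an adhesion receptor of activated cytotoxic cells, had 1.57 (adjusted p = 0.177, 0.43 with the floor), and Cd160, a receptor of cytotoxic and intraepithelial lymphocytes, had 1.02 (adjusted p = 0.224). The list of the SLAM family and related receptors, which includes Crtam and Cd160, had a median of 0.48 over 9 measured of 14. In it 4 genes were higher in 4 of 4 numbers and none lower, beside 8.47% and 8.58% of all genes.

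The list of adaptors, with Fcer1g, Tyrobp, Lat2 and Cd247 as the 4 measured of 5, had the highest median of the lists drawn below. It was 1.54, or 0.62 with the floor. Fcer1g entered by a probe set that was the brighter one only through the high dose. Its other probe set was brighter at the low dose (geometric means 1.51 against 1.34) and in OT1 (1.81 against 1.17). The median and its rank therefore depend in part on the high-dose level and only describe the list. Fcer1g, the gamma chain shared by Fc and NK receptors, read 1.95, 1.66, 1 and 1 at the low dose and 16.4, 11.04, 5.17 and 5.02 at the high dose. The low-dose arrays were at or next to the lowest value and only arrays 1 and 2 of the high dose exceeded 8. The difference of 2.62 ± 0.27 did not pass with all probe sets tested (adjusted p = 0.0564), and the floor left 0.37. A second Fcer1g probe set had 0.03. The first probe set has the suffix f, which in the maker's naming marks probes that can bind related sequences, as do the probe sets of Lat2 and Socs3 that passed with the filter. Tyrobp (DAP12), the adaptor of many activating NK receptors, read 8.16, 2.07, 8.87 and 6.72 and then 31.7, 7.47, 17.3 and 16.8. It was higher in 4 of 4 numbers without passing (1.52 ± 0.44, adjusted p = 0.174, 1.0 with the floor).

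Lat2 (NTAL), a transmembrane adaptor better known from B and mast cells, has 2 probe sets. One read 2.37, 5.54, 5.29 and 1 at the low dose and 24.8, 31.6, 11.2 and 8.36 at the high dose and rose by 2.51 ± 0.51 (adjusted p = 0.0467 with the filter), or 1.04 with the floor (adjusted p = 0.316). The other had 1.56, or 0.86 with the floor, and was lower in number 1. Cd247, the zeta chain of the T cell receptor complex, was the exception in this list, at -0.34 (adjusted p = 0.763).

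**Figure D3:**
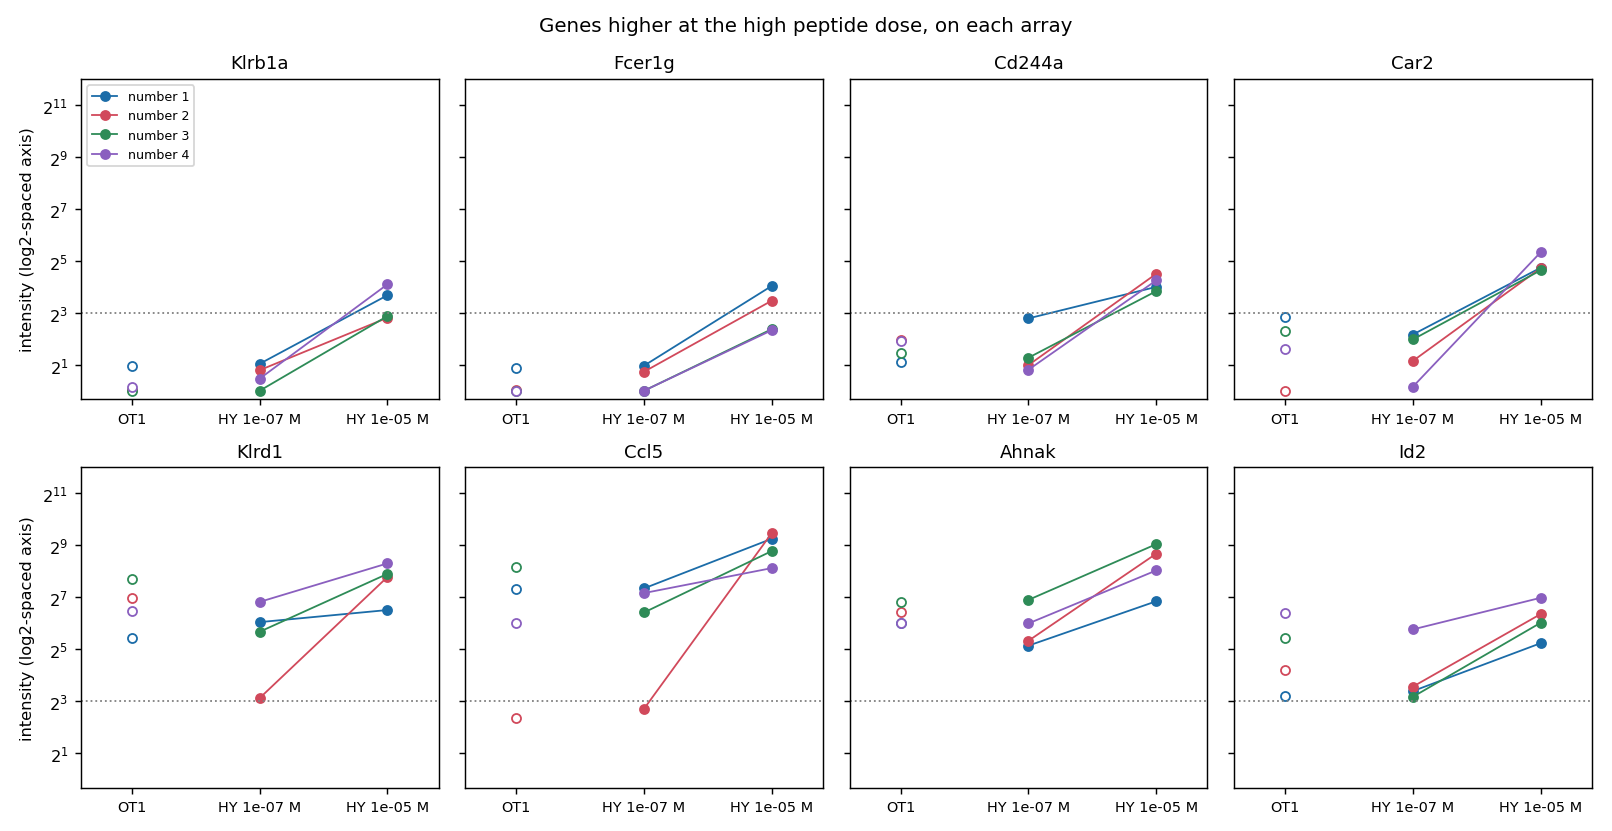
Intensity of 8 genes that were higher at the high dose (vertical, log2-spaced axis), drawn as in the coreceptor plot. Klrb1a, Fcer1g, Cd244a and Car2 start below 8 on every low-dose array, whereas Ahnak and Id2 start above 8. Among the HY arrays, array 2 of the low dose is the lowest for Klrd1 and Ccl5.

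Promoter sequence is shown for 3 genes of the NK receptor group and for Socs3, which fell. Each run is the 250 bases before the RefSeq start of the gene in GRCm38.p6, 5′ to 3′ on the gene's own strand, and capitals mark matches to the motifs searched.
Klrb1a, chr6:128622935-128623184, minus strand: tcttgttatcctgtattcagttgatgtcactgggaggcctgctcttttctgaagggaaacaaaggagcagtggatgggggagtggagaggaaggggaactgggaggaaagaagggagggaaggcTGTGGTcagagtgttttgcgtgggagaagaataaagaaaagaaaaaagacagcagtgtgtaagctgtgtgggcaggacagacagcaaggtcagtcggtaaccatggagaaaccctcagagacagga
Fcer1g, chr1:171234350-171234599, minus strand: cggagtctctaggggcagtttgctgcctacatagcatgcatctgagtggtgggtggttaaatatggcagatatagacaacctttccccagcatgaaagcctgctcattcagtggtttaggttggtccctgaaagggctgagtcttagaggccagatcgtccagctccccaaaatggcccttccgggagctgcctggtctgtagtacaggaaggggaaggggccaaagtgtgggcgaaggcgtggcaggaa
Cd244a, chr1:171558943-171559192, plus strand: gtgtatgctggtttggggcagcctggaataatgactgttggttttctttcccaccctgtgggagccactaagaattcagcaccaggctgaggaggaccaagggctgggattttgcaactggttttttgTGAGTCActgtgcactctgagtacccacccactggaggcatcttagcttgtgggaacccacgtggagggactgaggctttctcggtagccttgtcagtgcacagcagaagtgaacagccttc
Socs3, chr11:117969367-117969616, minus strand: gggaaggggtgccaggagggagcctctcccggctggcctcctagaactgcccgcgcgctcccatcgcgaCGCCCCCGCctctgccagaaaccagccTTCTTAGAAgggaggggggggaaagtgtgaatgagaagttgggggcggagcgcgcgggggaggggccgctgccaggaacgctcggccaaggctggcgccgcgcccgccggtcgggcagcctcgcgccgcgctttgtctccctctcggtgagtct

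The motifs were searched on both strands as plain letters: TGTGGT for RUNX factors, AGGTGT for T-box factors, TGANTCA for AP-1, GCGNGGGCG for EGR factors and TTCNNNGAA for STAT factors. Klrb1a held TGTGGT at 126 bases before the start. Cd244a held TGAGTCA at 122 bases, and Socs3 held an EGR match at 181 and a STAT match at 154. None of the letters was found in the Fcer1g window. A window was listed for 14 of the 17 genes higher with the filter, and 3 of these held the RUNX letters, while 0 of 7 windows of genes that fell did, beside 14% of 32851 promoters. The 17 include Klrb1a, Fcer1g and Casp1, whose pass is not used. The 3 with the RUNX letters were Ccdc50, Klrb1a and Plscr1. The AP-1 letters were in 2 of 14 and 1 of 7, beside 6.75%. The EGR letters were in 1 of 14 and 1 of 7, beside 4.7%, the STAT letters in 1 and 1, beside 7.02%, and the T-box letters in 1 and 2, beside 11.8%. A match is a description of the letters and not a site.

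Among probe sets with a geometric mean of 32 or more in the brighter group and one sign in 4 of 4 numbers, Ccl5 (RANTES), a chemokine of effector and memory T cells, had the largest difference after Cd8b1. It read 163, 6.58, 85.7 and 144 at the low dose and 612, 713, 441 and 279.8 at the high dose. The groups did not overlap, and array 2 of the low dose lay far below the others, as did array 2 of OT1. The difference was 3.0 ± 0.72 (2.93 with the floor) and did not pass (adjusted p = 0.102 with the filter). Xcl1 (lymphotactin), a chemokine of CD8 and NK cells, had 1.22 (adjusted p = 0.204). Of 16 chemokines and cytokines 2 were higher in 4 of 4 numbers and none lower, beside 8.47% and 8.58% of all genes. Their median was 0.29, or 0.14 with the floor, and 7 stayed at or below 8 on all 12 arrays. Among 13 cytotoxic effectors none passed. Ctsw, a protease of CD8 and NK cells, had 0.87, Srgn, the granule proteoglycan, had 0.91, and Gzmc and Fasl were dim at both doses.

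Ahnak, a very large membrane-associated scaffold protein, was bright and rose. It read 35.4, 40.3, 119.8 and 64.0 at the low dose and 116, 410.3, 529 and 263 at the high dose. Each high-dose array exceeded the low-dose array of its number, although array 1 of the high dose lay just below array 3 of the low dose. Ahnak rose by 2.31 ± 0.27 (adjusted p = 0.000714 with the filter) and passed with the floor (adjusted p = 0.0355). Anxa2, an annexin that binds S100a10 at the membrane, rose by 1.75 ± 0.33 (adjusted p = 0.0281), from 279, 23.6, 62.6 and 74.4 to 672, 287, 155 and 133. Arrays numbered 1 were brightest for Anxa2 at both doses. S100a10 itself had 0.54 without overlap between the groups (adjusted p = 0.312), and S100a4 had 1.0. Of 15 measured genes of this kind 3 were higher in 4 of 4 numbers and none lower, beside 8.47% and 8.58% of all genes. Their median was 0.34.

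Other genes that rose were of varied kinds. Id2, an inhibitor of E-protein transcription factors needed by NK and innate-like lymphocytes, read 10.5, 11.8, 9.03 and 54.5 at the low dose and 37.8, 82.0, 65.0 and 127 at the high dose. Array 4 was the highest at both doses, and Id2 rose by 2.17 ± 0.35 (adjusted p = 0.0104 with the filter). Car2, a cytosolic carbonic anhydrase, read 4.47, 2.21, 3.92 and 1.11 and then 26.5, 26.2, 24.8 and 39.98. No low-dose array reached 8 and every high-dose array was well above it, a rise of 3.49 ± 0.49 (adjusted p = 0.0043), or 1.85 with the floor (adjusted p = 0.00566). Cd9, a tetraspanin of the cell surface, rose by 1.76 ± 0.32 (adjusted p = 0.0196). Among the 14 measured tetraspanins, 12 of them tested with the filter, Cd9 was the only call, beside 0.345% of 8695 probe sets.

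A probe set with no gene in the annotation, 102860_at, passed with the filter and with the floor. It read 29.1, 2.23, 12.5 and 17.9 at the low dose and 105, 63.4, 97.0 and 80.6 at the high dose, a rise of 2.95 ± 0.38 (adjusted p = 0.00184). Plscr1, a phospholipid scramblase induced by interferon, rose by 1.95 (adjusted p = 0.0469) and passed with the floor (1.18, adjusted p = 0.0326). Emb (embigin), a glycoprotein that accompanies monocarboxylate transporters, rose by 1.36 (adjusted p = 0.0155). Nsmaf, a factor that couples the tumour necrosis factor receptor to sphingomyelinase, rose by 1.77 (adjusted p = 0.016). Psen2, a catalytic subunit of gamma-secretase, rose by 1.56 (adjusted p = 0.0469). The remaining probe sets that rose were those of Ccdc50, AU020206 and Sms with its pseudogene. Second probe sets of Emb, Nsmaf and Ccdc50 were below 8 on all 12 arrays and had -0.09, -0.22 and 0.39. Casp1, the caspase that matures interleukin-1, was below 8 on all 12 arrays (1 to 1.70 at the low dose, 4.56 to 5.56 at the high dose), so the floor left it without a value. Its difference of 2.03 did not pass with all probe sets tested (adjusted p = 0.0726).

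**Figure D4:**
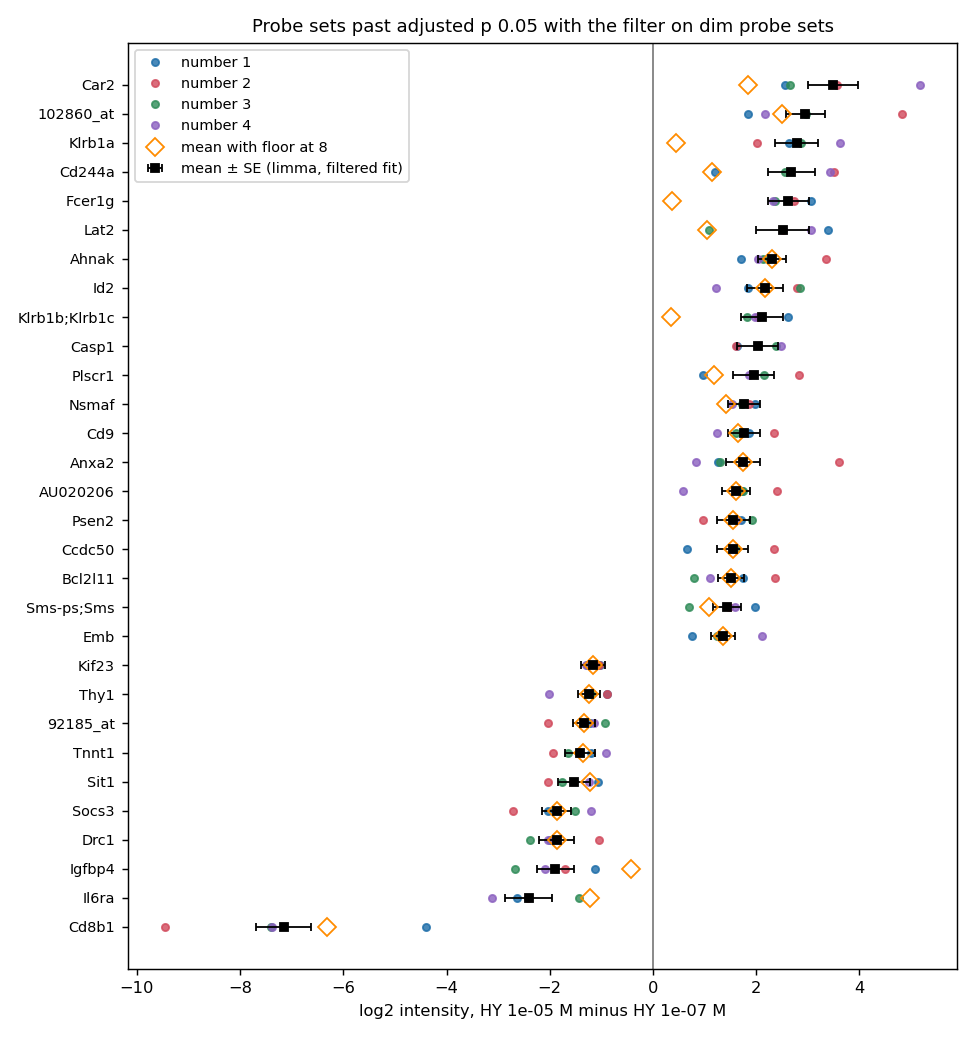
Log2 difference, high dose minus low dose (horizontal), of the 30 probe sets that passed with the filter, with one dot per number, the mean with its SE as a black square and the mean with the floor at 8 as an open diamond. Cd8b1 lies at -7.15, the diamonds of Klrb1a, Fcer1g and Igfbp4 lie much nearer 0 than their squares, and Casp1 has no diamond.

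With the filter, the count of 30 rested on the full set of arrays. Leaving out array 1, 2, 3 or 4 of the low dose gave 17, 11, 11 and 15 calls, and leaving out array 1, 2, 3 or 4 of the high dose gave 47, 11, 11 and 12. Cd8b1, Ahnak and 102860_at passed after each of these 8 omissions and after each of the 4 numbers was left out whole. Car2 and Socs3 passed after each single omission and after 3 and 2 of the 4 omissions of a number (adjusted p up to 0.062 and 0.0674). Bcl2l11 and Id2 passed after 5 of 8 single omissions and after 0 and 2 of 4 numbers (adjusted p up to 0.0986 for both). Thy1 passed after 4 single omissions and 2 of numbers (up to 0.196), and Cd244a after 2 and 1 (up to 0.175). AU020206 passed after 3 single omissions and 2 of numbers, Anxa2 after 3 and 1, and 92185_at after 6 and 1. Il6ra, Cd9, Emb, Nsmaf, Igfbp4 and Ccdc50 passed after 2 and 1, and Tnnt1 after 2 and 0. Plscr1, Psen2 and Drc1 passed after 1 and 1, and Lat2 and Sit1 after 1 and 0. Kif23 and the probe sets of Klrb1b with Klrb1c and of Sms passed after none. Not paired by number, 2 probe sets passed with the filter (0.023%), Cd8b1 and Klrb1a, the latter again through its level at the high dose.

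Of 21 measured genes that strong T cell receptor signals induce, 1 rose, Bcl2l11, beside 0.23% of 8695 probe sets. Bcl2l11 (Bim), the proapoptotic Bcl2 relative needed for deletion of thymocytes, read 20.5, 26.1, 40.9 and 40.6 at the low dose and 69.0, 134, 71.4 and 87.9 at the high dose. The groups did not overlap and Bcl2l11 rose by 1.51 ± 0.25 (adjusted p = 0.0126 with the filter), while its 2 other probe sets had -1.05 (-0.41 with the floor) and 0.26. Tnfrsf18 (GITR), a costimulatory receptor, had 0.96 (adjusted p = 0.0726), higher in 4 of 4 numbers. Egr2, a transcription factor of agonist signalling, had 1.35 (adjusted p = 0.31), and Nfatc1 had 1.04 (adjusted p = 0.307). In this list 5 genes were higher in 4 of 4 numbers and 1 lower, beside 8.47% and 8.58% of all genes. The median was 0.58, or 0.19 with the floor. The Bcl2 and cell death list, which also holds Bcl2l11, had a median of 0.03 over 13 measured genes, or 0.0 with the floor, and no further call.

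Components of the receptor's own signalling chain did not pass. Over 15 measured CD3 and proximal signalling genes the median was 0.01. In 4 of 4 numbers 2 were higher and 3 lower, beside 8.47% and 8.58% of all genes. Zap70, the kinase recruited to the receptor, had -0.35 (adjusted p = 0.541), Fyn had 0.45 and Prkcq, the protein kinase C of the synapse, had -0.54 (adjusted p = 0.37). Of 15 measured inhibitors of the signal 1 passed, beside 0.345% of 8695 probe sets with the filter. The inhibitor that passed was Sit1, a transmembrane adaptor that dampens the signal. Sit1 read 35.2, 17.1, 22.4 and 25.3 at the low dose and 16.8, 4.17, 6.59 and 10.7 at the high dose, with no overlap, and fell by 1.53 ± 0.30 (adjusted p = 0.0383 with the filter). Cd5 had -0.76 and was higher in number 1 alone, Cd6, its relative, had -1.20, and the phosphatase gene Ptpn22 had 0.59. None of these last genes passed.

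Every high-dose array was below every low-dose array for Socs3, an inhibitor of cytokine receptor signals. It read 124, 94.7, 71.8 and 46.0 at the low dose and 30.4, 14.4, 25.1 and 20.1 at the high dose. Socs3 fell by 1.86 ± 0.28 (adjusted p = 0.00689 with the filter), and its second probe set had -2.27, or -0.66 with the floor. OT1 arrays, at a geometric mean of 29.9, were nearer to the high dose, as they were for Kif23 and Anxa2. For the other 27 of the 30 probe sets OT1 was nearer to the low dose, beside 51.4% of all probe sets. These 27 include Klrb1a, Fcer1g and Casp1, whose pass is not used. The 30 were chosen by the difference between the doses and all probe sets were not, so the shares are not alike and no conclusion is drawn. In the SOCS and JAK-STAT list the median was 0.37 over 13 genes, or 0.22 with the floor. Socs3 was the only call among these 13, beside 0.345% of 8695 probe sets. Socs2 had 0.96 (0.60 with the floor) and Cish, both targets of STAT5, had 0.59, and neither passed.

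Il6ra, the interleukin-6 receptor chain of mature T cells, read 39.6, 6.23, 14.7 and 25.5 and then 6.40, 1.16, 5.42 and 2.92. It fell by 2.4 ± 0.45 (adjusted p = 0.0281 with the filter), or by 1.21 with the floor, under which every high-dose array stood at 8. Il7r, the interleukin-7 receptor that maturing thymocytes regain, had the opposite sign and did not pass (1.54, adjusted p = 0.121), from 15.0, 30.7, 29.9 and 32.2 to 22.8, 69.6, 247 and 81.5. Of 23 measured cytokine receptors 4 were higher in 4 of 4 numbers and 3 lower, beside 8.47% and 8.58% of all genes.

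Thy1, the surface glycoprotein of T cells and thymocytes, was bright at both doses, at 709, 301, 699.6 and 634 and 382, 163, 306 and 158. It was lower within every number although the groups overlapped, and it fell by 1.24 ± 0.21 (adjusted p = 0.0126 with the filter). Cd2, an adhesion receptor of T cells, had -1.09 (adjusted p = 0.0726), and Cd52, a small surface glycoprotein of lymphocytes, had -0.68 without overlap (adjusted p = 0.174). Ccr7, the receptor that guides mature thymocytes and naive T cells, read 20.6, 10.8, 9.72 and 23.3 and then 7.08, 7.46, 3.58 and 5.38, a difference of -1.41 (adjusted p = 0.159, -0.91 with the floor). Cxcr3, a homing receptor of effector cells, had 1.57, the opposite sign (adjusted p = 0.0897). Of 14 measured genes of mature conventional T cells 7 were lower in 4 of 4 numbers and 2 higher, beside 8.58% and 8.47% of all genes, and the median was -0.44 with and without the floor. The summed level of 7 T cell markers was 804 to 2007 at the low dose and 548 to 1168 at the high dose, with 7 of 7 above 8. Lower in 4 of 4 numbers were 3 of the 7 markers, beside 8.58% of all genes. Among them Cd3e, a chain of the receptor complex, had -0.25 (adjusted p = 0.758). The part of cell mixture in these differences was not tested.

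Genes of double-positive thymocytes, the stage before selection, had a median below 0. Of 16 measured, 6 were lower in 4 of 4 numbers and none higher, beside 8.58% and 8.47% of all genes. Cd8b1, which is on this list, was the only call among 15 tested with the filter, beside 0.345% of 8695 probe sets. The median was -0.46, or -0.38 with the floor. Satb1, a chromatin organiser of thymocytes, read 16.5, 60.1, 213 and 160.5 and then 5.30, 21.2, 133 and 78.2, a difference of -1.21 ± 0.27 (adjusted p = 0.0726 with the filter). Rag1, the recombinase, and Dntt, terminal transferase, had -1.44 and -1.32 at intensities below 12, and with the floor these shrank to -0.07 and -0.26. Lef1, a transcription factor of early and naive T cells, had -1.48 on one probe set (adjusted p = 0.162) and -0.29 on the other. Among lineage transcription factors 1 of 17 was higher in 4 of 4 numbers, which was Id2, and 5 were lower, beside 8.47% and 8.58% of all genes. The 5 include Klf2 at -0.63 and Tcf3 at -1.67, or -0.25 with the floor.

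The other probe sets that fell were those of Kif23, Drc1, Tnnt1, Igfbp4 and 92185_at, which has no gene. Kif23, a kinesin of the dividing cell's midbody, read 78.7, 27.5, 93.5 and 69.8 and then 38.5, 13.3, 38.5 and 28.6 and fell by 1.16 ± 0.24 (adjusted p = 0.0469 with the filter). Over 27 measured cell cycle genes the median was -0.11. In this list 2 were higher in 4 of 4 numbers and 3 lower, beside 8.47% and 8.58% of all genes. Drc1, a gene of the ciliary dynein regulatory complex, read 91.9, 53.9, 124 and 88.1 and then 23.01, 26.1, 23.8 and 21.6, with no overlap. It fell by 1.86 ± 0.34 (adjusted p = 0.0246). A second Drc1 probe set had -1.91, or -0.17 with the floor, and did not pass. Tnnt1, a troponin of slow muscle, fell by 1.42 ± 0.29 (adjusted p = 0.0469), while its second probe set had -0.21. Igfbp4, a binding protein for insulin-like growth factors, fell by 1.89 on one probe set (adjusted p = 0.0296 with the filter, -0.42 and adjusted p = 0.548 with the floor) and had 0.65 (0.36 with the floor) and -0.21 on the others. Ramp1, a receptor accessory protein, and the histone gene H3c14 were among the largest differences on bright probe sets, at -1.37 and -1.24, and did not pass.

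In several broad programmes no member passed. Interferon response genes had a median of 0.41 over 25 measured. Of these 6 were higher and 1 lower in 4 of 4 numbers, beside 8.47% and 8.58% of all genes. Gbp3 had 1.07 (adjusted p = 0.262) and Iigp1, an immunity-related GTPase, 1.52 (adjusted p = 0.301, 0.66 with the floor). Class I MHC and peptide loading genes had a median of 0.31 over 13, with B2m at 0.35 and H2-D1 at 0.57. Glycolysis genes had 0.11 over 15, mitochondrial respiratory chain genes -0.15 over 24 and ribosomal protein genes 0.08 over 13. Immediate early and heat shock genes had 0.02 over 17, or -0.0015 with the floor. In the respiratory chain list Cox4i1 had -0.98 without overlap (adjusted p = 0.155), from 18.4, 18.4, 15.9 and 32.6 to 9.67, 10.97, 7.20 and 15.3. St8sia4, a polysialyltransferase, had the smallest adjusted p among the glycan enzymes without passing, at 1.27 (adjusted p = 0.0555).

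**Figure D5:**
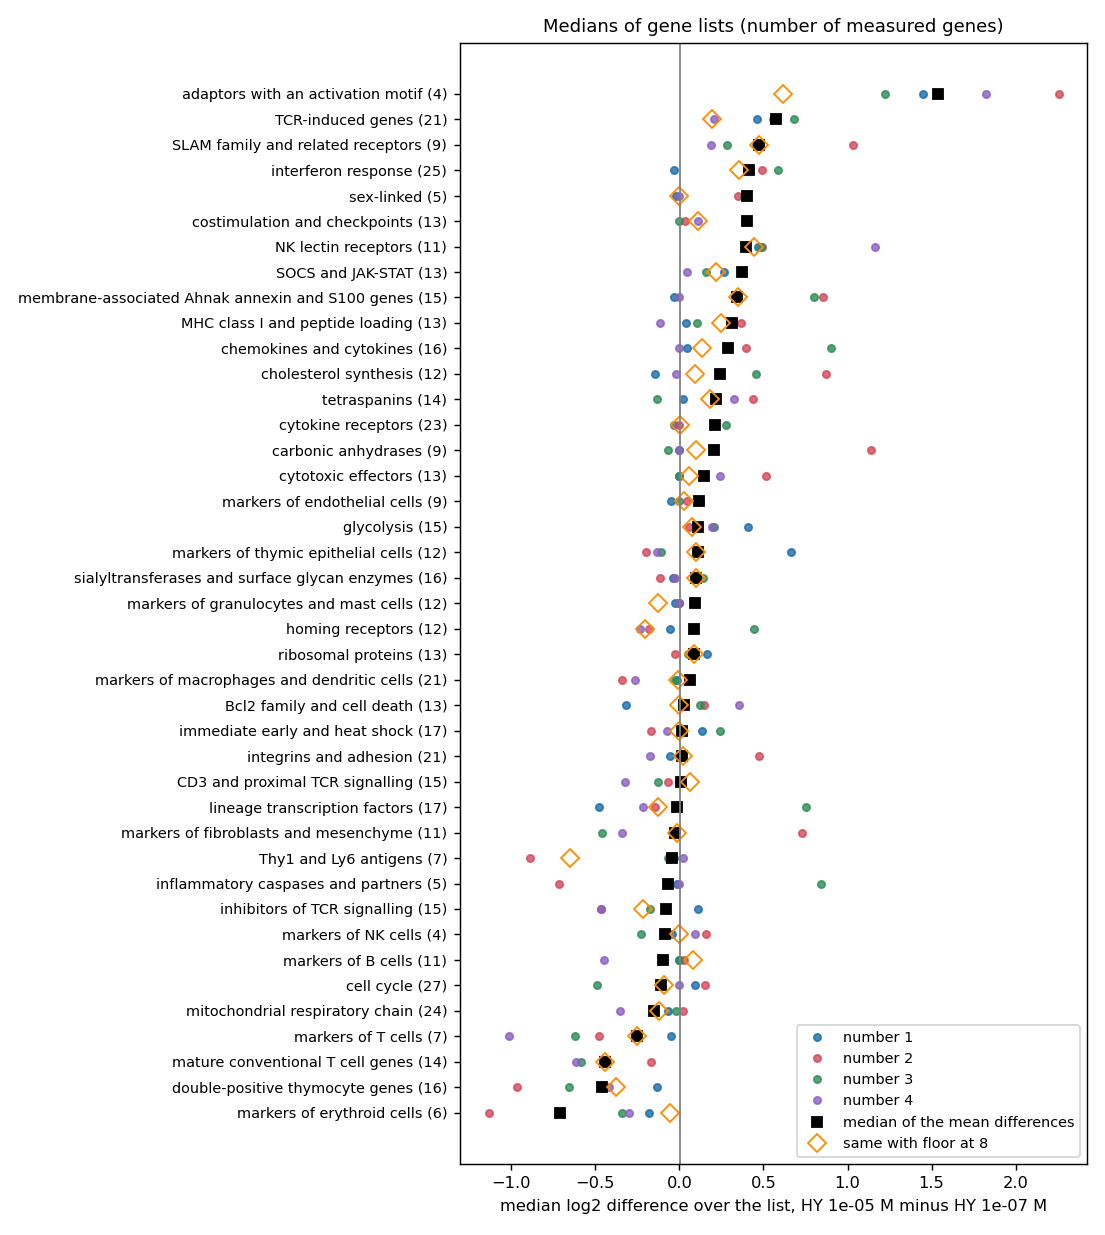
Median log2 difference of each gene list, high dose minus low dose (horizontal), with the number of measured genes in brackets, dots for the median within each number, a black square for the median of the mean differences and an open diamond for the same with the floor at 8. The coreceptor list and the gamma delta T cell marker list are not drawn. The adaptor list stands highest at 1.54 (0.62 with the floor), with Fcer1g read by a probe set chosen through its high-dose level. The erythroid marker list lies lowest at -0.71 (-0.05 with the floor), the double-positive and mature T cell lists lie at -0.46 and -0.44, and most lists straddle 0.

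Markers of the other cell types that such a culture can hold were summed over each array. Summed markers of macrophages and dendritic cells ran from 166 to 638 at the low dose and from 178 to 599 at the high dose, with medians of 315 and 442 and 9 of 21 above 8 on any HY array. The list's median difference was 0.06, or -0.01 with the floor. In it 3 members were lower in 4 of 4 numbers and none higher, beside 8.58% and 8.47% of all genes. The members with the smallest p were dim: Csf1r, the macrophage growth factor receptor, was at 4.48 to 11.3 against 3.47 to 3.94, Apoe at 1.63 to 18.5 against 1 to 3.33, Mrc1 at 1.38 to 2.43 against 1 to 1.35 and the class II gene H2-Aa at 1.35 to 1.52 against 1 to 5.27. The sums of thymic epithelial markers were 31.0 to 45.5 and 31.2 to 47.1, with 3 of 12 above 8. Those of fibroblasts were 59.0 to 103 and 54.3 to 91.6, with 7 of 11 above 8.

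B cell markers summed to 97.9 to 644 at the low dose and 169 to 538 at the high dose (4 of 11 above 8), and those of granulocytes and mast cells to 23.7 to 42.0 and 21.1 to 31.5 (2 of 12). Endothelial sums were 38.6 to 58.7 and 37.4 to 52.1 (3 of 9). Erythroid sums were 70.1 to 128 and 46.2 to 85.8 (3 of 6), carried by Tfrc, the transferrin receptor, which dividing thymocytes also express (53.5 to 106 against 33.3 to 61.3). Of 9 gamma delta T cell markers 2 were measured. One of them, the Src family kinase gene Blk, read 7.16, 4.07, 6.15 and 1.68 at the low dose and 7.67, 1.20, 153 and 32.7 at the high dose, so it was high on arrays 3 and 4 alone, and its difference of 1.81 did not pass (adjusted p = 0.409).

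Sex-linked genes were read because the peptide comes from one of them. Kdm5d, the source gene of the peptide, was at 1 to 1.35 at the low dose and 1 to 3.88 at the high dose, and Uty, another Y-linked gene, at 1 to 1.35 and 1 to 3.23. Eif2s3y was at 1 to 2.74 and 1.38 to 7.36, with an OT1 geometric mean of 12.9. Xist, transcribed from the inactive X chromosome, read 38.1, 441, 320.5 and 327 at the low dose and 32.7, 308, 225 and 265 at the high dose. Arrays numbered 1 were the lowest at both doses. None of the 5 sex-linked genes passed. Within numbers 1 to 4 the Xist difference was -0.22, -0.52, -0.51 and -0.30, lower each time. The mean difference was -0.39 ± 1.04 (limma adjusted p = 0.929 with the filter). The OT1 arrays, which entered this spread, read 9.89, 1, 1.68 and 304 for Xist.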

How the data were processed

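Thymocyte RNA was measured on 12 Affymetrix mouse arrays, and the authors deposited 1 table of intensities for 12488 probe sets. The intensities are linear. Background correction, summary over probes and scaling are not given in sources used here. They were used as deposited. The 66 control probe sets were left out, which left 12422, of which 10833 match 1 gene in the platform annotation, 396 several and 1193 none. The table gives neither detection calls nor probe-level values, so dim probe sets cannot be told from absent ones.

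Log2 intensities were fitted with limma (version 3.58.1, R 4.3.3) over all 12 arrays, with group means, a block for the number in the title, 6 residual degrees of freedom and an intensity trend in the empirical Bayes step. Tests were two-sided and Benjamini-Hochberg adjusted over all probe sets tested, at 0.05. The fit was tested on simulated data. Same-numbered HY arrays deviated together from their group means (correlations 0.308 to 0.557, others -0.33 to 0.07), so arrays were taken as paired by number, which rests on these correlations alone. The filter kept probe sets with a mean log2 intensity above the 30th percentile (an intensity of 1.76). The floor set values under 8 to 8 and left out probe sets at the floor on all 12 arrays. Other alternatives were a floor at 16, log2(intensity + 16), quantile or median scaling, no trend, array weights, the 8 HY arrays alone, no block, and leaving out arrays or numbers.

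The 43 gene lists and the comparison were chosen with earlier results of these data known, so lists are described by counts and medians, with no p. Each gene of a list is read by its brightest probe set with 1 symbol. Genes were named by rule: 4 per list with the smallest p, 8 higher and 8 lower with the largest difference with the floor among probe sets at 32 or more in the brighter group and of one sign in 4 of 4 numbers, and the coreceptor, adaptor and sex-linked lists in full. The 20 per direction past 0.05 without the filter, also in the rule, were none. Probe sets that passed with the filter or floor, and other probe sets of their genes, were named after their values were seen. Promoter windows are from RefSeq (GRCm38.p6), and genome positions of probe sets were not used here.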

Additional observations from a re-analysis of the deposited data

Results flagged for a closer look

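In 35 of 355 groups of 4 HY arrays (9.86%) 1 array stood far from the other 3, by more than a critical value that chance passes in about 1 in 20 groups. At array 1 of the low dose the values were 136 for Atp5a1, 38.7 for Dusp2, 3.15 for Egr2, 1.52 for H2-Aa, 15.0 for Il7r, 2.50 for Itga4, 4.40 for Pdia3, 256 for Rpl7, 26.7 for S100a4 and 38.1 for Xist. At array 1 of the high dose they were 3.33 for Apoe, 1.77 for Gzma, 707 for Psmb10, 488 for Rpl7, 12.3 for Srgn and 32.7 for Xist. Rpl7 and Xist stood apart at array 1 of both doses, below the other 3 arrays each time.

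At array 2 of the high dose Cd8b1 read 1, Lef1 10.4, Cd6 5.10, Car6 3.12, Casp4 1.13, Il18 1.04, Jun 1.12 and Rpl22 5.78. At array 2 of the low dose Cd5 read 21.6 and Thy1 301. At array 3 of the low dose Eno3 read 8.57 and Tcf3 4.49, and at array 3 of the high dose S100a4 read 60.2 and Tie1 2.06. At array 4 of the low dose Cd3e read 31.9 and Id2 54.5. At array 4 of the high dose Car2 read 39.98, Rag1 5.18 and Loxl1 1.94.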

How the results depend on the processing

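Without the filter, 0 of 12422 probe sets passed with limma (1112 at an unadjusted p under 0.05), and the count was 6 with the floor at 8, 4 with a floor at 16, 5 with log2(intensity + 16), 30 with the filter, 1 with quantile normalization, 2 with arrays scaled to one median, 3 without the intensity trend and 5 with array weights. Without the replicate block it was 0 (431 at an unadjusted p under 0.05), and 4 without the block and with the floor at 8. With the 8 HY arrays alone it was 0. Leaving out replicates gave 0 to 1, the 1 being Cd8b1 without array 1 of the high dose. With the filter, counts added after the data were seen were 2 without the replicate block, 28 after quantile normalization, 6 with the floor at 8, and 4 to 47 with replicates left out. The cause of these moves was not tested.

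Of 3918 single values under alternatives, 3825 kept direction and side of the threshold, 61 came to pass and 32 changed sign without passing. Cd4 (0.055) became -0.05 with the floor at 8, with or without the block, and -0.014 with log2(intensity + 16), Gzma (0.034) became -0.015 with arrays scaled to one median, Sox13 (0.368) -0.038 with the floor at 16 and Xist (-0.388) 0.098 with array weights. With replicates left out the differences ran from -0.062 to 0.488 for Car6, -0.331 to 0.302 for Cd4, -0.038 to 0.393 for Eif2s3x, -0.135 to 0.285 for Gzma, -0.797 to 0.279 for Itga2, -0.045 to 0.686 for Kdm5d, -0.04 to 0.282 for Loxl1, -0.373 to 0.042 for Ncr1, -0.232 to 0.673 for Sox13 and -1.153 to 0.332 for Xist. Of 983 list medians 100 moved beyond the spread between the numbers. With 66.3% of HY values below 8, differences there are limited by brightness near the bottom of the scale.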

Other observations

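Among 13 measured costimulation and checkpoint genes none passed with the filter. Among 17 integrin and adhesion genes tested with it Emb alone passed, beside 0.345% of 8695 probe sets. Tnfsf11 (RANKL), a ligand that thymocytes give to medullary epithelium, had geometric means of 7.00 at the low dose and 14.6 at the high dose, a difference of 1.06 (limma adjusted p = 0.367 with the filter) that was higher in 4 of 4 numbers. Tnfrsf9 (4-1BB), an activation-induced receptor, had 1.19 (adjusted p = 0.428, 0.32 with the floor). Of 21 measured integrin and adhesion genes 3 were higher and 4 lower in 4 of 4 numbers, beside 8.47% and 8.58% of all genes. Itga4 had 1.03 and Itgav, the alpha chain of vitronectin receptors, 0.78, both higher in 4 of 4 numbers, and Selplg, the selectin ligand, had -0.42.

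Cholesterol synthesis genes had a median of 0.24 over 12 measured, or 0.09 with the floor. Cyp51 had 0.65 and Sc5d 0.60, both higher in 4 of 4 numbers and neither past the threshold (adjusted p = 0.457 and 0.606). Among the sialyltransferases, St8sia4 read 6.59, 68.5, 75.3 and 42.7 at the low dose and 11.1, 260.1, 141 and 121 at the high dose, and St3gal6 had 1.20 with groups that did not overlap (adjusted p = 0.276, 0.28 with the floor). Of 9 measured carbonic anhydrases 6 were tested with the filter, and Car2 was the 1 that passed, beside 0.345% of 8695 probe sets. Car1, Car6 and Car8 stayed below 8 on every HY array.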
